A study of Mus musculus with 9 samples.

Results

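Transcripts of heat shock proteins and of DnaJ co-chaperones were examined in pooled metaphase II (MII) eggs of the mouse, ovulated oocytes that wait at the second meiotic division. The genes were chosen by name: protein-coding entries whose symbol begins with Hsp followed by a digit or a letter from a to h, or with Dnaja, Dnajb or Dnajc. The rule took 70 of 30153 genes, 27 with an Hsp name and 43 with a Dnaj name. By family they comprised 3 Hsp90, 10 Hsp70, 3 Hsp110, 2 mitochondrial chaperonin, 5 small heat shock protein, 4 DnaJ subfamily A, 11 subfamily B and 28 subfamily C genes. The remaining 4 carry an Hsp name without belonging to these families.

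The eggs came from 4-week-old Sycp3CreERT2/+; Rosa26nT-nG/+ females of mixed genetic background, so all 3 groups carried both alleles. Sycp3CreERT2 places a tamoxifen-inducible Cre recombinase under the meiotic gene Sycp3, and nT-nG makes nuclear tdTomato before and nuclear GFP after Cre has acted. Females received 5 IU PMSG and, 48 h later, 5 IU hCG, and eggs were taken 13 h after that, treated with hyaluronidase to strip the cumulus and picked by fluorescence. The groups were GFP High (pools of 15, 15 and 16 eggs), GFP Low (49, 52 and 57) and RFP (87, 88 and 100), with 3 libraries each. Nothing in the labels says whether the pools came from separate mice, so p-values measure the spread between these pools. The GFP High pools were also the smallest, and pool size and reporter group cannot be told apart.

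Molecular chaperones keep proteins folded. Hsp70 binds exposed stretches of its clients in a cycle driven by ATP. DnaJ proteins bring the clients and start ATP hydrolysis through their J domain, and exchange factors such as Hsp110 release the ADP. Hsp90 completes the folding of kinases and receptors, the chaperonin ring of Hsp60 (Hspd1) and Hsp10 (Hspe1) folds proteins inside mitochondria, and small heat shock proteins hold unfolded proteins without ATP. Under stress the transcription factor Hsf1 induces many of these genes, and Hsf1 is a maternal-effect gene in the mouse. An MII egg no longer transcribes, and the messages measured here are those it stored during growth.

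Libraries held between 19381677 and 27746256 counts, and the 70 genes took between 2.03% and 2.21% of them. The reporters followed the labels, with 869 to 1081 eGFP counts per GFP High library, 282 to 662 per GFP Low library and 0 to 16 per RFP library, while tdTomato had 0 to 2, 16 to 35 and 46 to 94. The 11 oocyte markers, among them Zp3 and Gdf9, summed to between 9431 and 10789 CPM (counts per 1e6 counts of a library) across GFP High and between 8703 and 9403 across the 6 other libraries, so GFP High stood above both groups. In edgeR 0 of the 11 were called. Calls were also rare among all genes tested, at 0.0135% with RFP as the reference of GFP High and 0.0% with GFP Low. With RFP as the reference, 4 of the 11 had an unadjusted edgeR p under 0.05, beside 4.09% of all genes tested. With GFP Low as the reference there were also 4 of the 11, beside 3.77%. The median log2 fold change of the 11 markers in GFP High was 0.20 over RFP and 0.13 over GFP Low. The part of this difference in the results was not tested. The 13 cumulus and granulosa markers summed to between 2.07 and 40.7 CPM across GFP High, 4.51 and 41.6 across GFP Low, and 4.71 and 62.3 across RFP. In GFP Low 1 and 3 and in RFP 1 and 2, 11 of those 13 exceeded 3 counts, and GFP High 2 had the fewest, with 2. The granulosa markers Amh and Amhr2 were at 0 in 8 of 9 libraries each, while Vcan reached 341 counts in RFP 2. Levels below are given as CPM scaled over the 9 libraries when libraries are compared, and as the authors' FPKM (per kilobase of gene length) when genes are compared.

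In sentences with values by library, replicates 1, 2 and 3 of a group follow in that order.

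The stored chaperone messages were dominated by Hsp90. The 3 Hsp90 genes made up 45.0% of the summed CPM of all 70 genes, subfamily C 19.2%, subfamily A 12.4%, subfamily B 12.1% and Hsp70 6.96%. Hsp110 contributed 2.82%, the mitochondrial chaperonin pair 1.30% and the small heat shock proteins 0.0204%. These shares are not corrected for gene length. Summed as FPKM, the chaperonin pair stood above Hsp110, at a mean of 164 against 87.0, and the other families kept their order. At 1 CPM or more in all 9 libraries, 51 of the 70 genes were detected. A further 11 stayed under 1 CPM in each library: Hspa1a, Hspa12b, Hspb3, Hspb7, Hspb8, Hspbp1, Dnajb3, Dnajb5, Dnajb13, Dnajc12 and Dnajc22. The other 8 crossed that level in some libraries only, namely Hspa1b, Hspb1, Hspg2, Dnajc6, Dnajc24, Dnajc25, Dnajc27 and Dnajc28.

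**Figure D1:**
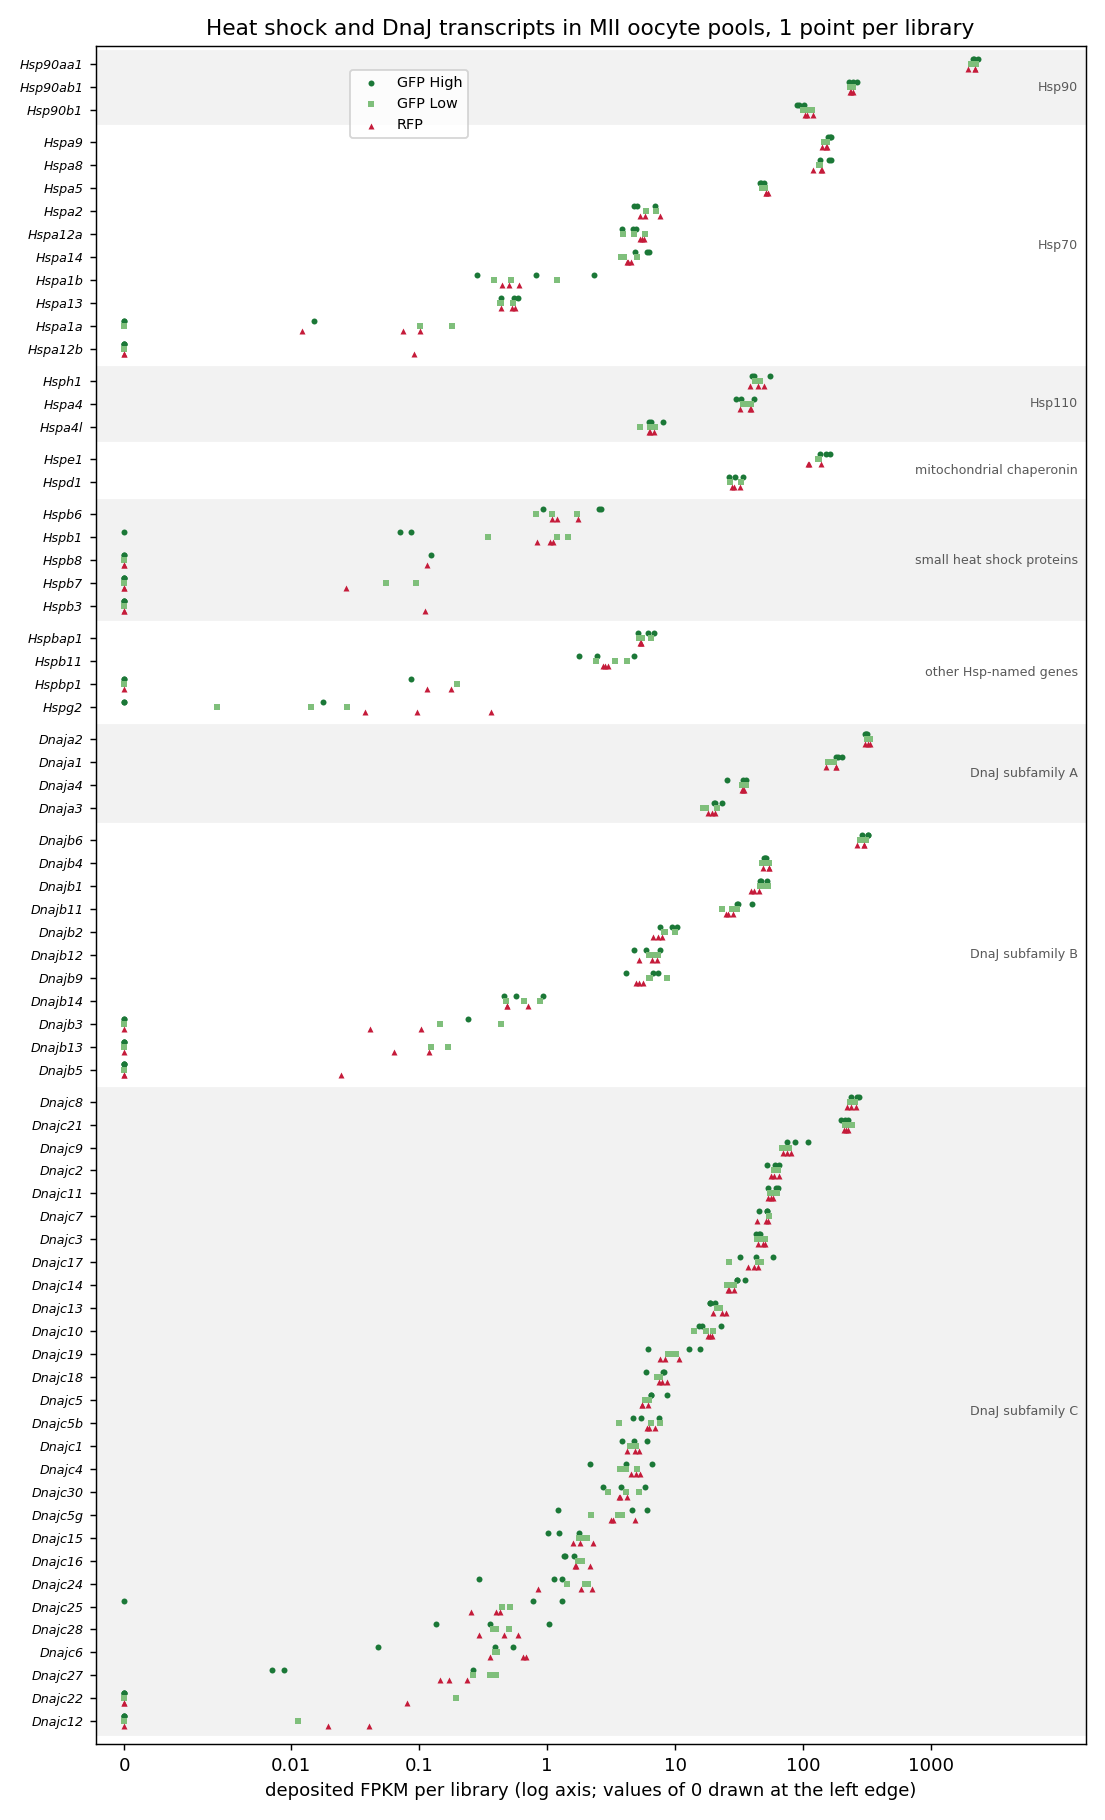
Deposited FPKM (log axis, values of 0 at the left edge) of all 70 genes in the 9 libraries, by family and ordered by mean level. Hsp90aa1 stands near 2147 FPKM, well to the right of every other gene, whereas Hspa1a and most small heat shock proteins lie below 1 FPKM.

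Hsp90aa1 (ENSMUSG00000021270, chromosome 12, 110690605 to 110702728 on GRCm38, minus strand) encodes the stress-inducible cytosolic Hsp90 of somatic cells. Its deposited level was 2147 ± 111 FPKM (SD, n = 9), eighth among all 30153 genes, and it took 39.6% of all counts of the 70 genes. It had 8424, 9058 and 8566 CPM across the GFP High libraries, 8418, 8923 and 8152 across GFP Low and 8676, 8747 and 7736 across RFP. The groups overlapped. As log2 fold changes, GFP High differed from RFP by 0.06 (SE 0.06) and from GFP Low by 0.03 (SE 0.05), and GFP Low from RFP by 0.02 (SE 0.07). The 95% intervals of these log2 differences reached no further than -0.13 and 0.20. Gm12346, a processed pseudogene 99.5% identical to it over 2255 bp, held 1.84% of its counts on average, and reads shared by the pair cannot be assigned with certainty.

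Hsp90ab1, the constitutive cytosolic Hsp90, stood far lower at 240 ± 9.99 FPKM (n = 9). It had 788, 682 and 743 CPM across the GFP High libraries, 721, 704 and 738 across GFP Low and 710, 741 and 729 across RFP, without separation of the groups.

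Hsp90b1 encodes GRP94, the Hsp90 of the endoplasmic reticulum (ER). It had 377, 361 and 413 CPM across the GFP High libraries, 481, 440 and 404 across GFP Low and 486, 433 and 428 across RFP. Every GFP High library lay below every RFP library, and GFP High 3 lay above GFP Low 3. The log2 fold change of GFP High was -0.22 (SE 0.09) against RFP and -0.20 (SE 0.09) against GFP Low. Neither passed the test over all genes (edgeR adjusted p = 0.997 and 0.998).

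Among the Hsp70 genes, the constitutive members carried nearly all of the message. Hspa9, the mitochondrial Hsp70 (mortalin), had 153 ± 7.43 FPKM, and Hspa8, the constitutive cytosolic Hsc70, had 140 ± 13.99 (SD, n = 9), so these levels overlapped. Hspa5, the ER Hsp70 known as BiP, followed at 49.4 ± 2.40 FPKM. Hspa2, known for its role in male meiosis, had 6.18 ± 1.02 FPKM, close to Hspa12a at 4.93 ± 0.713 and Hspa14 at 4.79 ± 0.878.

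Hspa8 had 681, 715 and 583 CPM across the GFP High libraries, 585, 573 and 589 across GFP Low and 521, 600 and 621 across RFP. GFP High 1 and 2 were above the other 7 libraries, and GFP High 3 was not. On the log2 scale GFP High exceeded RFP by 0.19 (SE 0.10) and GFP Low by 0.18 (SE 0.08), with edgeR adjusted p-values of 0.997 and 0.998. Hspa9 had 644, 612 and 650 CPM across the GFP High libraries, 597, 583 and 607 across GFP Low and 560, 610 and 610 across RFP. Its GFP High libraries did not overlap either other group, by a log2 difference of 0.10 (SE 0.08) and 0.09 (SE 0.07). Hspa5 went the other way, with 199, 193 and 209 CPM across the GFP High libraries, 204, 211 and 217 across GFP Low and 221, 220 and 228 across RFP. Both GFP groups lay entirely below RFP, by a log2 fold change of -0.15 (SE 0.09) and -0.08 (SE 0.07), and neither passed the test (edgeR adjusted p = 0.997 and 1).

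The strictly stress-inducible pair was close to the floor. Hspa1a (ENSMUSG00000091971) and Hspa1b (ENSMUSG00000090877) are neighbours on the minus strand of chromosome 17, with starts 12918 bp apart, and their transcripts are 99.2% identical over 2201 bp. They are the classical heat-induced Hsp70 genes, and their induction in the early embryo belongs to the first wave of zygotic transcription. Counts for Hspa1a were 0, 0 and 1 across the GFP High libraries, 0, 8 and 15 across GFP Low and 6, 7 and 1 across RFP. Hspa1b had 22, 159 and 51 counts across the GFP High libraries, 21, 39 and 94 across GFP Low and 45, 29 and 39 across RFP. The 159 counts of GFP High 2 were the most in any library, yet GFP High 1 was among the lowest. Against RFP, Hspa1b had a log2 fold change of 1.12 (SE 0.79, 95% interval -0.64 to 2.87) in GFP High, and GFP Low gave 0.44 (SE 0.49, -0.62 to 1.503). Both intervals included 0, and the coefficient of variation of Hspa1b between the GFP High libraries was 92.1%. At 0.784 ± 0.632 FPKM, Hspa1b stood 2 orders below Hspa8, and how reads were divided between the near-identical pair is not given in the sources used here.

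Hsp110 proteins are the large relatives of Hsp70 that exchange its nucleotide. Hsph1 had 44.7 ± 5.09 FPKM, Hspa4 35.8 ± 3.94 and Hspa4l 6.55 ± 0.723 (SD, n = 9). Hsph1 had 303, 291 and 403 CPM across the GFP High libraries, 311, 325 and 339 across GFP Low and 364, 284 and 331 across RFP. Hspa4 had 230, 181 and 165 CPM across the GFP High libraries, 220, 200 and 190 across GFP Low and 180, 213 and 222 across RFP. The groups overlapped for all 3 Hsp110 genes in each comparison.

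Hspd1 and Hspe1 encode the mitochondrial Hsp60 and Hsp10 and are read in opposite directions from a shared promoter on chromosome 1. Hspd1 (55077835 to 55088243, minus strand) and Hspe1 (55088132 to 55091307, plus strand) have starts 111 bp apart and overlap by 112 bp on GRCm38. The sites below are shown because they match the heat shock element, the DNA motif bound by Hsf1, which was searched as GAANNTTCNNGAA and TTCNNGAANNTTC, each the reverse complement of the other. The letters come from RefSeq promoter windows (GRCm38.p6, 250 bases before to 50 after a start), and capitals mark the matched bases.
Hspe1, chr1:55088053-55088082, plus strand, 95 to 66 bases before its start: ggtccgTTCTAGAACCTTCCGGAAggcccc
Hspd1, chr1:55088053-55088082, minus strand, 150 to 121 bases before the inner of its starts: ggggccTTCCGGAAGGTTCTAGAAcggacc
Dnajb6, chr5:29735846-29735870, plus strand, 52 to 28 bases before the nearer of its starts: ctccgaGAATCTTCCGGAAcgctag
The Hspe1 and Hspd1 lines are the same stretch of DNA read on its 2 strands, and it holds 2 overlapping matches. It lies upstream of the inner Hspd1 start in RefSeq and downstream of the outer one, from which the 111 bp were counted and whose window held no match. In GENCODE M21 it lies within the 5′ untranslated exon of a longer Hspd1 transcript, and the Dnajb6 site lies within that of a longer Dnajb6 transcript and opposite the coding sequence of Gm5129. Another gene, Hsph1, has a match just downstream of its start.

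Windows were found for 57 of the 70 genes, and 4 of those 57 genes (7.02%) held the motif on either strand in at least 1 window, against 0.662% of 27025 genes with a window and 0.531% of 9228 genes at a mean of 1 CPM or more. These 4 genes had 30.1 to 296 FPKM (median 89.0), and the other 53 had 0.00272 to 318 (median 4.93). Hspd1 and Hspe1 count as separate genes here but share 1 stretch. The stress-inducible Hspa1a, Hspa1b, Hspb1 and Dnajb1 had windows without a match to these exact letters and are among the 53. Whether the motif goes with the level was not tested. The TATA motif TATAAA was found for 4 of the 57 genes (7.02%, against 9.77% of all genes with a window), and CCAAT on either strand for 23 (40.4%, against 41.1%). A match is a description of the letters only. Among the genes without a window were Hsp90aa1, Hsp90ab1, Hspa8 and Hspa9.

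Hspe1 was far above Hspd1, at 133 ± 16.5 FPKM against 30.1 ± 2.82 (SD, n = 9). Hspe1 had 239, 198 and 222 CPM across the GFP High libraries, 197, 199 and 196 across GFP Low and 165, 205 and 164 across RFP. RFP 2 lay above GFP High 2, and RFP 1 and 3 were the lowest of the 9 libraries. The log2 fold change of GFP High against RFP was 0.31 (SE 0.12, 95% interval 0.03 to 0.58), with an unadjusted edgeR p of 0.031 and an adjusted p of 0.997. Hspd1 had 89.8, 76.9 and 70.4 CPM across the GFP High libraries, 87.5, 72.2 and 87.6 across GFP Low and 86.5, 77.0 and 75.1 across RFP, with a log2 fold change near 0 (-0.00, SE 0.13) in the same comparison. The partners were thus measured with different point estimates, and the difference between them was not tested. Hspd1-ps3, a pseudogene 99.0% identical to Hspd1, held 4.93% of the Hspd1 counts on average.

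Small heat shock proteins were almost absent from the pool of messages. Hspb6 (Hsp20) was the only 1 of 5 above 1 CPM in all 9 libraries, at 1.53 ± 0.683 FPKM. It had 6.13, 2.16 and 5.89 CPM across the GFP High libraries, 2.53, 1.91 and 4.00 across GFP Low and 2.57, 2.76 and 4.12 across RFP. GFP High 1 and 3 were the highest libraries and GFP High 2 was among the lowest. Hspb3, Hspb7 and Hspb8, which are best known from muscle, were at 0 in most libraries, and Hspb8 had counts in GFP High 2 and RFP 1 only, at 0.244 and 0.226 CPM.

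Hspb1 (ENSMUSG00000004951, chromosome 5, 135887919 to 135889563, plus strand), which encodes the stress-inducible Hsp25, was near the limit of detection in GFP High. Its counts were 2, 0 and 2 across the GFP High libraries, 24, 40 and 10 across GFP Low and 31, 20 and 30 across RFP. Each GFP High library was at or under 3 counts, and each other library held at least 10. The summed level of RFP was 19.8 times that of GFP High (95% counting interval 7.45 to 74.5), and that of GFP Low was 18.7 times (7.02 to 70.6). These intervals cover counting error only and leave out the spread between pools. In edgeR the comparison with RFP gave an unadjusted p of 0.0185 and an adjusted p of 0.997, and the filter on low counts left Hspb1 out of the comparison with GFP Low. The authors' deposited table gives Hspb1 the smallest adjusted p of these genes in GFP High against GFP Low, 0.472. Gm9817, which is 99.8% identical to Hspb1 over 477 bp, had 47, 35 and 15 counts across the GFP High libraries, 47, 40 and 83 across GFP Low and 45, 32 and 43 across RFP, so the division of reads between these copies bears on the Hspb1 counts and was not tested.

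Hspg2 (ENSMUSG00000028763, chromosome 4, 137468769 to 137570630, plus strand) matched the naming rule but encodes perlecan, a heparan sulfate proteoglycan of basement membranes, and is no chaperone. Its counts were 7, 0 and 0 across the GFP High libraries, 4, 1 and 11 across GFP Low and 140, 32 and 15 across RFP. All RFP libraries were above all GFP libraries, and RFP 1 held most of the counts. Set against the same RFP libraries, GFP High had a log2 fold change of -4.70 (SE 1.60) and GFP Low of -3.46 (SE 0.91), with edgeR adjusted p-values of 0.997 and 1. Without RFP 1 these became -3.42 and -2.16 (edgeR adjusted p = 1 for each). Without the filter on low counts, edgeR called Hspg2 in GFP Low against RFP (adjusted p = 5.03e-04), and its adjusted p there ran from 5.03e-04 to 1 over the alternatives. The authors' deposited tables give 0.164 and 0.0965 for the comparisons with RFP.

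The cumulus and granulosa markers summed to 1114, 51 and 177 counts across the GFP High libraries, 807, 118 and 326 across GFP Low and 595, 1419 and 127 across RFP. GFP High 1 and GFP Low 1, with high marker sums, held 7 and 4 Hspg2 counts, and RFP 3, with a low sum, held 15. RFP 2, with the highest sum, held more Hspg2 counts than any library but RFP 1, and GFP High 2, with the lowest, held none. Within the list, Cyp11a1 and Star, of steroid hormone production, were highest in RFP 1, at 85 and 51 counts, as was Hspg2. Foxl2 and Amhr2 were also highest there, at 12 and 2 counts. Hsd3b1, of the same pathway, was highest in RFP 2, at 181 counts against 111 in RFP 1. Vcan, Ptx3, Ptgs2, Inhba and Tnfaip6 were highest in RFP 2 as well, and Has2, Fshr and Amh in libraries of the GFP groups. GFP High 2 held 42 Star counts and no Hspg2 count. Hspb1 was equally low in GFP High 1 and GFP High 3, where the marker sums differed. The part of other ovarian cells in either result was not tested.

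**Figure D2:**
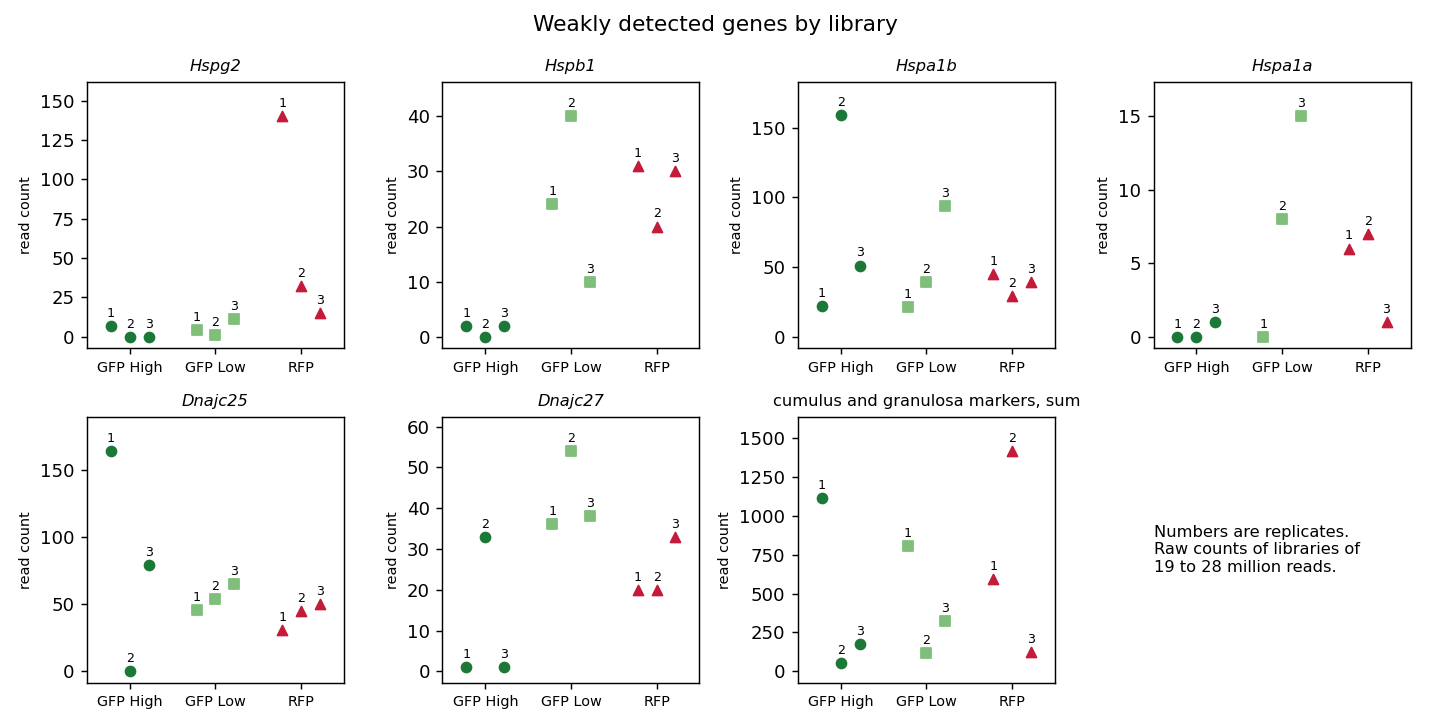
Raw counts per library (numbers beside the points are replicates) of 6 weakly detected genes and of 13 cumulus and granulosa markers summed. Hspb1 is at 0 to 2 counts in GFP High and at 10 to 40 elsewhere, and 140 of the Hspg2 counts belong to RFP 1.

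The other Hsp-named genes outside the families were low. Hspbap1, which codes for a protein that binds small heat shock proteins, had 5.73 ± 0.625 FPKM. Hspb11, which encodes the ciliary transport protein Ift25, had 3.08 ± 0.944, and Hspbp1, an Hsp70 exchange factor, was under 1 CPM in all 9 libraries.

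DnaJ subfamily A holds the closest relatives of bacterial DnaJ. Dnaja2 at 318 ± 12.2 FPKM and Dnaja1 at 174 ± 15.9 (SD, n = 9), both cytosolic partners of Hsc70, were second and seventh among the 70 genes. Dnaja4 followed at 33.2 ± 3.03 and the mitochondrial Dnaja3 (Tid1) at 19.7 ± 2.12. Dnaja1 had 1561, 1727 and 1618 CPM across the GFP High libraries, 1351, 1512 and 1418 across GFP Low and 1587, 1574 and 1331 across RFP. GFP High was above every GFP Low library, and RFP spanned both. The log2 fold change of GFP High against GFP Low was 0.20 (SE 0.07, 95% interval 0.05 to 0.35), with an unadjusted edgeR p of 0.0133 and an adjusted p of 0.998. Dnaja2 was lower in GFP High in that comparison, with 915, 938 and 918 CPM against 938, 1003 and 1008, a log2 difference of -0.09 (SE 0.06) with GFP High 2 just under GFP Low 1. The pseudogene Gm15542, 99.4% identical to Dnaja1, held 6.94% of the Dnaja1 counts on average, and Smu1 overlaps its end by 608 bp on the opposite strand.

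Subfamily B was led by Dnajb6, a suppressor of protein aggregation, whose promoter site is printed above. It had 296 ± 19.02 FPKM, and 1946, 1939 and 1748 CPM across the GFP High libraries, 1690, 1890 and 1794 across GFP Low and 1824, 1838 and 1632 across RFP. The groups overlapped. Its near copy Gm6395, 99.1% identical, held 10.8% of the Dnajb6 counts on average. Dnajb4 had 51.3 ± 2.55 FPKM and Dnajb1, the stress-inducible Hsp40 that works with Hsp70 in the cytosol, had 46.7 ± 4.66, so these overlapped.

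Dnajb1 had 168, 147 and 151 CPM across the GFP High libraries, 149, 164 and 172 across GFP Low and 133, 148 and 129 across RFP. All GFP Low libraries were above all RFP libraries, and GFP High 2 was below RFP 2. The log2 fold change of GFP Low against RFP was 0.25 (SE 0.09), with an unadjusted edgeR p of 0.0171 and an adjusted p of 1. The ER co-chaperones of BiP in this subfamily are Dnajb9 (ERdj4) and Dnajb11 (ERdj3). Dnajb11 had 99.96, 130 and 99.5 CPM across the GFP High libraries, 90.2, 76.6 and 98.8 across GFP Low and 82.4, 92.0 and 85.3 across RFP. GFP High stood above both other groups, by log2 0.35 (SE 0.14, edgeR adjusted p = 0.997) over RFP and 0.31 (SE 0.14, edgeR adjusted p = 0.998) over GFP Low. Dnajb9 had 18.7, 17.2 and 10.5 CPM across the GFP High libraries, 16.0, 16.4 and 22.1 across GFP Low and 12.8, 14.5 and 13.7 across RFP. GFP Low was above RFP by log2 0.42 (SE 0.17), with an edgeR adjusted p of 1, and GFP High spanned both groups.

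Dnajb2, best known from neurons, had 8.42 ± 1.25 FPKM, and 32.6, 43.7 and 40.7 CPM across the GFP High libraries, 34.9, 35.7 and 43.1 across GFP Low and 28.9, 31.4 and 34.2 across RFP. All GFP Low libraries were above all RFP libraries, by log2 0.27 (SE 0.13, edgeR adjusted p = 1), and GFP High 1 lay inside the range of RFP. Dnajb14, a protein of the ER membrane, had 7.30, 14.7 and 9.08 CPM across the GFP High libraries, 7.63, 14.1 and 10.6 across GFP Low and 11.3, 7.77 and 7.79 across RFP. The groups overlapped, and Dnajb14 varied by 37.4% between GFP High libraries and by 30.01% between those of GFP Low.

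Subfamily C joins proteins that share little beyond the J domain. Dnajc8, associated with the splicing machinery, had 246 ± 17.4 FPKM, and Dnajc21, which acts in the making of the large ribosomal subunit, had 218 ± 12.8. The histone chaperone Dnajc9 had 79.3 ± 12.3, the ribosome-associated Dnajc2 60.1 ± 4.19 and the ER protein Dnajc3 (p58IPK) 46.3 ± 2.60. Dnajc5 (cysteine string protein) stood lower, at 6.31 ± 0.940 FPKM, and its relatives Dnajc5b and Dnajc5g had 6.08 ± 1.33 and 3.64 ± 1.43. Other genes of the subfamily were lower still, such as Dnajc16 at 1.70 FPKM and Dnajc27 at 0.207.

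Dnajc8 had 706, 671 and 607 CPM across the GFP High libraries, 602, 623 and 651 across GFP Low and 668, 612 and 571 across RFP. Dnajc21 had 1075, 944 and 1017 CPM across the GFP High libraries, 1092, 1170 and 1030 across GFP Low and 1006, 1039 and 1094 across RFP. Neither separated the groups. Dnajc9 had 178, 259 and 205 CPM across the GFP High libraries, 163, 186 and 180 across GFP Low and 193, 181 and 170 across RFP, and the 259 of GFP High 2 was the highest of all. Dnajc5 was at 45.5, 59.8 and 45.5 CPM across the GFP High libraries, 42.2, 41.1 and 43.9 across GFP Low and 38.6, 38.7 and 43.4 across RFP. GFP High was above both groups, by log2 0.33 (SE 0.16, edgeR adjusted p = 0.997) over RFP. Dnajc14, named after its values were seen, had 201, 231 and 200.3 CPM across the GFP High libraries, 170, 193 and 187 across GFP Low and 174, 190 and 173 across RFP. It was the remaining gene with an unadjusted edgeR p under the threshold in GFP High against RFP, at log2 0.24 (SE 0.10, edgeR adjusted p = 0.997).

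GFP High was compared with RFP to ask whether eggs with the strongest recombination signal stored other chaperone messages than eggs with an unrecombined reporter. Of the 70 genes, 59 passed the filter on low counts and 0 were called at an edgeR adjusted p under 0.05, where 0.0135% of all genes tested were. At an unadjusted p under 0.05 there were 6 of 59, against 4.09% of all genes tested: Dnajb11, Dnajc14 and Hspe1 higher, Hsp90b1, Hspb1 and Hspg2 lower. The libraries of the groups did not overlap for 11 of 59 genes, against 11.9% of all genes tested. The median log2 fold change was 0.04 over the 59 genes and -0.01 over all genes, with 33 genes above 0 and 26 below. The authors' deposited table has 0 of the 70 genes at an adjusted p under 0.05, the smallest being 0.164 for Hspg2.

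The comparison of GFP Low with RFP put that question to eggs with weak GFP. Of 59 genes tested, 0 were called (edgeR, 0.0197% of all genes tested), and 3 had an unadjusted p under 0.05 (2.62% of all genes), Dnajb1 and Dnajb9 higher and Hspg2 lower. Groups did not overlap for 7 of 59 genes, against 7.68% of all genes tested. The median log2 fold change was -0.0043 over these genes and -0.0041 over all. Both comparisons share the RFP libraries, so a low or high RFP value enters each of them. The authors' deposited table has 0 of the 70 genes at an adjusted p under 0.05 here as well.

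In GFP High against GFP Low, 57 genes were tested and 0 called, as were 0.0% of all genes in edgeR. Dnaja1, higher, and Hsp90b1, lower, had an unadjusted p under 0.05, 2 of 57 genes against 3.77% of all genes tested. Groups did not overlap for 12 of 57, against 11.5% of all genes. The median log2 fold change was 0.02 over the 57 genes and -0.0048 over all. When all 9 libraries were tested for any difference among the 3 groups, 0 of 59 were called (0.0126% of all genes) and 5 had an unadjusted p under 0.05 (4.65% of all genes). DESeq2, run as an alternative on the pairs of groups, tested 70, 70 and 67 of these genes in the order of the paragraphs above. It also called 0 of them in each pair, with 6, 3 and 7 at an unadjusted p under 0.05.

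**Figure D3:**
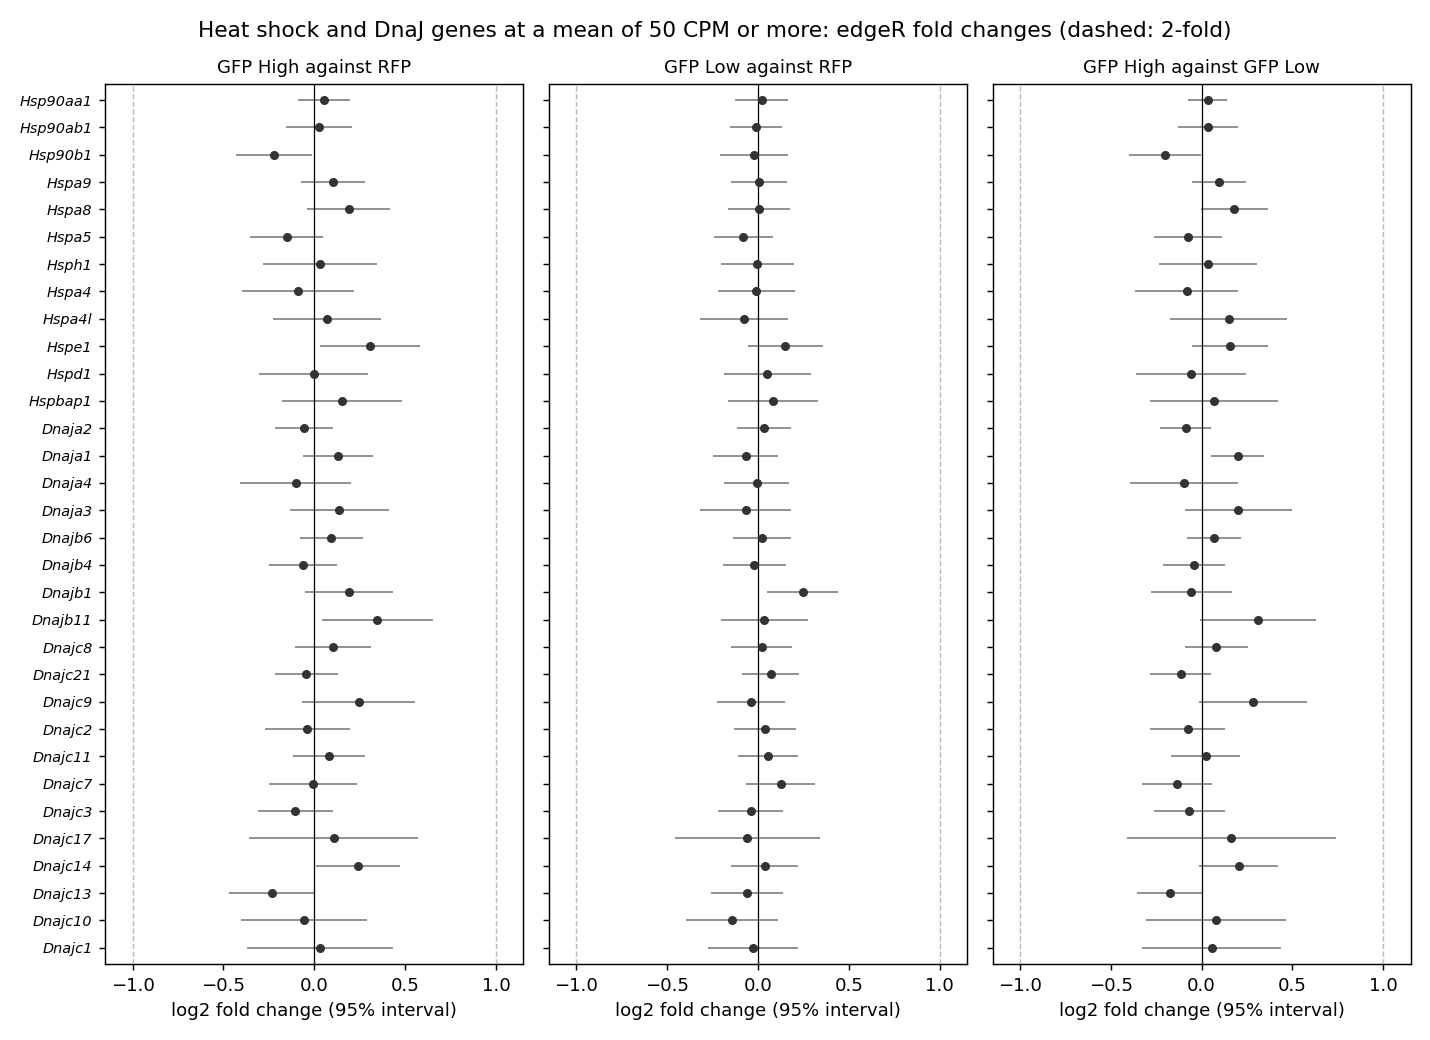
Log2 fold change (points) with 95% interval (bars, edgeR) of the 32 genes at a mean of 50 CPM or more in the 3 pairwise comparisons, by family. All 32 intervals lie inside the dashed lines at a 2-fold change, and the Hsp90aa1 interval is the narrowest in both comparisons of GFP High.

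For abundant genes the intervals bounded the differences. In each comparison 32 of the tested genes had a mean of 50 CPM or more, and for all 32 the 95% interval lay within a 2-fold change in either direction. It lay within 1.5-fold for 31, 32 and 30 of them in GFP High against RFP, GFP Low against RFP and GFP High against GFP Low. Over all 3773 genes at that level, the counts within 1.5-fold were 3308, 3729 and 3464. The exceptions among the 32 were Dnajb11 in both comparisons of GFP High and Dnajc17 in GFP High against GFP Low. The median absolute log2 fold change of the 32 was 0.10, 0.04 and 0.09, beside 0.10, 0.05 and 0.09 over the 3773 genes.

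Summed by family, the groups stood close together. Taking GFP High, GFP Low and RFP in that order, Hsp90 summed to 9804 ± 265, 9660 ± 388 and 9561 ± 579 CPM (SD, n = 3). Hsp70 summed to 1566 ± 39.4, 1458 ± 29.4 and 1469 ± 84.2, with GFP High 3 at 1521 CPM inside the range of RFP. Subfamily A summed to 2757 ± 115, 2606 ± 109 and 2661 ± 179, subfamily B to 2671 ± 126, 2588 ± 94.8 and 2527 ± 146, and subfamily C to 4131 ± 209, 4165 ± 77.1 and 4086 ± 49.96. All 70 genes together came to 21902 ± 528, 21426 ± 555 and 21236 ± 798 CPM. No family sum was given a test, since its genes were chosen together.

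Replicates differed most in GFP High. For the 9 genes at a mean of 1 to 5 CPM the median coefficient of variation between libraries was 77.5% for GFP High, 16.5% for GFP Low and 26.0% for RFP, where all 3564 genes at that level had 66.3%, 32.03% and 27.8%. From 5 to 50 CPM the 16 genes had 24.3%, 14.1% and 8.23%, beside 25.2%, 13.2% and 13.0% over all 5470 genes at that level. From 50 to 500 CPM the 22 genes had 11.6%, 6.76% and 6.85%, beside 11.5%, 6.41% and 7.91% over all 3453. The 10 genes at 500 CPM or more had 6.26%, 4.29% and 5.71%, beside 7.33%, 4.60% and 6.76% over all 320. The highest value among these genes was that of Dnajc27, a small GTPase with a J domain. It and Dnajc25 were named after their values were seen. Dnajc27 had 1, 33 and 1 counts across the GFP High libraries, 36, 54 and 38 across GFP Low and 20, 20 and 33 across RFP, a coefficient of variation of 158% in GFP High. Dnajc25 had 164, 0 and 79 counts across the GFP High libraries, 46, 54 and 65 across GFP Low and 31, 45 and 50 across RFP, or 94.7% in GFP High. Among these genes at a mean of 5 CPM or more, Dnajc5g and Hspb11 varied most in GFP High, by 62.5% and 52.8%. Dnajc19, of the mitochondrial import motor, followed at 42.0% in GFP High, with 52.2, 62.9 and 24.9 CPM. It lies opposite Fxr1 over 14303 bp, and the counting is not stated to use strand, so reads of that stretch cannot be told apart. Dnajc17 varied by 30.2% between GFP High libraries and by 29.1% between those of GFP Low, and its 97.0% identical copy Gm6257 varied from 54 to 327 counts.

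**Figure D4:**
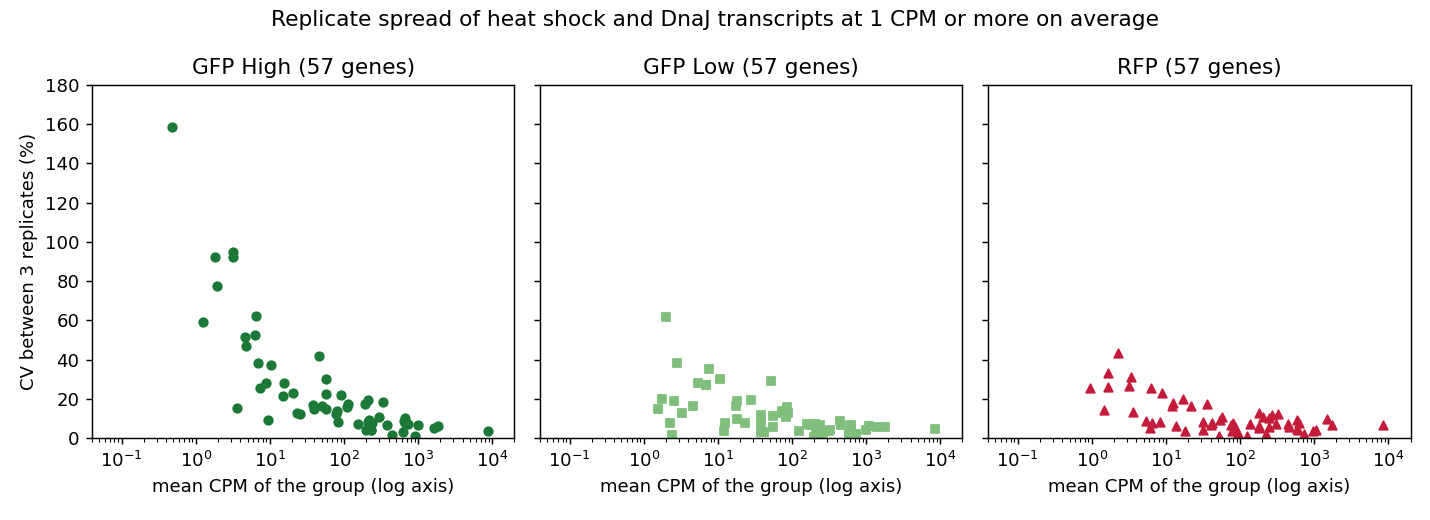
Coefficient of variation between the 3 libraries of each group against the mean CPM of that group (log axis) for the 57 genes at a mean of 1 CPM or more over the 9 libraries. The GFP High panel reaches the highest values at low levels, with Dnajc27 at 158%, and the genes at 500 CPM or more have 10.4% or less in every panel.

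Partners of these chaperones outside the naming rule showed the same lack of calls. Of the heat shock factors, Hsf1 had 8.07 FPKM, Hsf2 0.417 and Hsf5 25.2. Together with the binding proteins Hsf2bp and Hsbp1, at 19.6 and 52.3 FPKM, 0 of 5 tested were called in any comparison. Among 19 Hsp90 co-chaperones, of which 18 were tested in GFP High against RFP and all in the other comparisons, led by Stip1 (Hop, which links Hsp70 to Hsp90) at 139 FPKM and Ptges3 (p23) at 65.3, 0 were called. The same held for 8 tested exchange factors of Hsp70, with Bag1 highest at 34.6 FPKM, and for 14 tested subunits of the cytosolic chaperonin and prefoldin, with Pfdn4 at 491 FPKM and Tcp1 at 67.8. Of 15 tested genes of ER folding and the unfolded protein response, which include Pdia4 at 276 FPKM and Calr at 222, 0 were called, and 0 of 10 tested for mitochondrial protein quality control, with Lonp1 at 38.8. Of 7 tested Hsf1 target genes outside the rule, 0 were called in each comparison. Ubb stood at 635 FPKM among them, whereas Bag3 had 0.0492 FPKM and was not tested. At an unadjusted edgeR p under 0.05 these lists held 0 or 1 gene each per comparison. Over all genes tested the share was 4.09%, 2.62% and 3.77%, in the order of comparisons given above. Their median log2 fold changes lay between -0.13 and 0.11 over all lists and comparisons, beside medians over all genes of -0.01, -0.0041 and -0.0048.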

How the data were processed

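Poly-A RNA of pooled eggs was taken with oligo-dT beads and, per the labels' protocols, read as paired ends after random-hexamer priming. The submitters' processing notes name fastp, HISAT2 2.0.5, featureCounts 1.5.0-p3, DESeq2 1.20.0 and the build mm10. Counting options, such as strand and the handling of reads with several matches, are not given in the sources used here. The authors deposited a table for each of the 3 pairs of groups with raw read counts per gene, and these counts entered all tests. Their tables also hold a normalised signal (deposited, not used in any test) and FPKM values, which the authors made from gene length and library size and which served here only to compare genes. The log2 fold changes and p-values that the authors deposited are quoted only where their table is named.

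The 3 tables were joined by gene identifier, and the count of 178 genes that a table lacked was set to 0 in the libraries concerned. At the smallest total, 1 CPM corresponds to about 19.4 reads. Without molecular identifiers, counting intervals leave out amplification and pool-to-pool error. The detection limit was set at 3 counts. Libraries of the same group were not duplicates of each other (chi-square per degree of freedom 14.7 to 61.7).

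Each pair was tested on its 6 libraries with edgeR 4.0.16 under R 4.3.3 (filterByExpr, TMM, quasi-likelihood test, no covariate), with Benjamini-Hochberg adjustment over all genes tested and a threshold of 0.05. Standard errors came from the F statistic, and 95% intervals used the t quantile of the fitted degrees of freedom. The scripts were tested on simulated data. Alternatives were other filters and scalings, DESeq2 1.42.0, limma-voom (limma 3.58.1), all 9 libraries together, the replicate number as a block, and leaving out each library. Near copies were sought with BLAST 2.17.0 among GENCODE M21 transcripts (at least 95% identity over 300 bp). The coordinates of 67 of the 70 genes equal those in M21, which uses GRCm38.

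The genes and lists were chosen with earlier results of these data known, so the lists received no test of their own. The rule for naming genes took 42: fixed main members of each family, the 3 highest by FPKM in each family, the 4 with the smallest p in each comparison, and the 3 most variable per group at 5 CPM or more. Values by library are not printed for all of them, and some are given with a mean FPKM only.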

Additional observations from a re-analysis of the deposited data

How the results depend on the processing

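With 3 pools a group, calls rested on few genes. The number of genes called over the whole table in GFP High against RFP was 2. It became 16 without the filter on low counts, 12 with DESeq2, 1 with limma-voom and 0 to 2 with a library left out (0 without either GFP High 1 or 3, and 0 without either RFP 2 or 3). In GFP Low against RFP the number went from 3 to 34, 10 and 1 under the same first 3 alternatives. In GFP High against GFP Low it went from 0 to 16 without the filter and 4 with DESeq2, and was 0 to 1 with a library left out (1 without GFP High 3). Of the heat shock and DnaJ genes, 1 was called without the filter in GFP Low against RFP, Hspg2, and 0 were called in any other comparison and alternative run, the test over 3 groups included. The smallest adjusted p of that test was 0.0502, with DESeq2.

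The median log2 fold change of these genes in GFP High against RFP, 0.04, became -0.0014 without the filter, 0.023 with DESeq2, -0.0011 with limma-voom and -0.030 to 0.051 with a library left out (lowest without GFP High 1, highest without GFP High 2). In GFP High against GFP Low it was 0.02, and became -0.032 without the filter, -0.013 with DESeq2, -0.035 with limma-voom, -0.0062 with all 9 libraries and -0.027 to 0.044 with a library left out (lowest without GFP High 1, highest without GFP Low 3). The sign of these medians therefore depends on such choices, and the cause was not tested. Of the single-gene fold changes, 1144 of 1145 under other settings kept their side of the threshold. With a library left out, 668 of 690 moved by less than 1 SE. Family sums moved by less than the spread between libraries in all 162 alternatives.

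The libraries were not paired by replicate number, since libraries that share a number deviated from their groups with r between -0.106 and 0.12 across genes. With the replicate number as a block, 4 genes were called in GFP High against RFP, and the medians were 0.0077 there and -0.022 for GFP High over GFP Low. The block left 0 heat shock and DnaJ genes called in each comparison. Detection of 51 genes at 1 CPM in all 9 libraries became 55 at 5 counts or at 0.1 CPM.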

Other observations

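The naming rule also met 9 processed pseudogenes, which were kept out of the counts above. Hspd1-ps3 had a mean of 4.01 CPM, with 92, 30 and 130 counts across the GFP High libraries, 106, 124 and 90 across GFP Low and 117, 74 and 124 across RFP. Dnajc19-ps had a mean of 1.39 CPM, and the other 7 each stayed under 1 CPM in all 9 libraries.

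Some near copies outside the rule carried more reads than well-known chaperone genes. Gm6395, the copy of Dnajb6, had between 165 and 254 CPM, Gm12346, the copy of Hsp90aa1, had between 131 and 192, and Gm15542, the copy of Dnaja1, had between 88.1 and 117. For Gm12346 the GFP High libraries were at 134, 132 and 131 CPM, GFP Low at 155, 168 and 165 and RFP at 192, 178 and 152. All GFP High libraries of Gm12346 lay below all others, whereas the GFP High libraries of Hsp90aa1 itself, at 8424 to 9058 CPM, overlapped both groups. Gm12346 was singled out after its values were seen, the difference was given no test of its own, and how reads were divided between the gene and its copy is not given in the sources used here.

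In 16 of the 70 genes at least 1 other annotated gene shared 95% identity or more over 300 bp, and their levels are the less certain for it. For some the match is an overlapping gene on the opposite strand and no copy, as for Dnaja4 with Wdr61 and Dnajb13 with Ucp2.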
